A study of Drosophila melanogaster with 8 samples.

Results

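Male and female heads of the *Obp56h*-/- line were compared gene by gene. These are 4 of the 8 libraries of the series, and 11533 of the 17490 genes counted had enough reads in them to be tested. The *Obp56h*-/- flies (null in the plots) come from 1 line in which CRISPR/Cas9 removed *Obp56h*, which encodes an odorant-binding protein, from the Canton S B (*CSB*) background and put in its place a DsRed marker driven in the eye. *CSB* flies, without the deletion, are the control, and their 4 libraries serve to set a second, separately made sex comparison beside the first and enter 1 joint fit over all 8 libraries, which tests whether the sex difference differs between the lines. Each library is total RNA, depleted of ribosomal RNA, from the heads of a pool of 50 flies aged 3 to 5 days, and each sex of each line has 2 such pools. Unless *CSB* is named, females and males below are those of the *Obp56h*-/- line. On *Obp56h*, 1 and 0 reads were counted in females and 0 and 0 in males, against 54 and 90 in *CSB* females and 110 and 106 in *CSB* males.

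In *Drosophila*, the number of X chromosomes sets whether the splicing regulator *Sxl* is active. In females, *Sxl* directs the splicing of *tra*, and *tra* with *tra2* directs the female splicing of the transcription factors *dsx* and *fru*. Without *Sxl* protein, males make *msl-2*, which assembles with other proteins and the RNAs *roX1* and *roX2* into the complex that raises transcription of the single X. Outside the nervous system, a head tissue known to differ between the sexes is the fat body, which lies around the brain and secretes yolk proteins in females.

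The libraries hold between 19369402 and 25918919 counted reads, so that 3 reads, taken as the smallest count that shows a gene, correspond to between 0.117 and 0.162 CPM (reads of a gene per 1e6 reads of the library). CPM values are scaled by TMM, a correction for library composition, separately for the 4 *Obp56h*-/- and the 4 *CSB* libraries, so levels on these scales are not compared across lines. Thinned to the same 10127941 reads, between 3325 and 3728 genes had no read in the *Obp56h*-/- libraries. In *CSB*, 1344 genes had none in female replicate 1, 2087 in male replicate 1, and 3095 and 2765 in the second replicates of females and males, so both first replicates stand apart. The biological coefficient of variation between replicates of a sex, as fitted by edgeR, was 10.3% in the *Obp56h*-/- libraries and 31.8% in *CSB*. These are single values for all genes of a fit. Fitted by expression level, the median over genes with an average below 2 CPM in the 4 libraries of a line was 27.5% against 77.9%. The markers of neurons (7 of 7), glia (7 of 7), photoreceptors (10 of 10) and antennae (6 of 6) all had enough reads to be tested. Of 58 testis genes, 21 had enough reads, and of 42 ovary and eggshell genes, 20.

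Between the sexes, 251 genes were higher in males, which is 2.18% of those tested, and 612 were higher in females, 5.31%, at an adjusted p under 0.05 (quasi-likelihood test of edgeR, p-values adjusted by Benjamini-Hochberg). Before adjustment, 2386 genes had a p under 0.05. The first principal component held 57.1% of the variance and separated the sexes. Most differences were small. The median difference, as an absolute log2 value, was 0.67 for the genes higher in males and 0.72 for those higher in females. A difference of at least 2-fold was fitted for 70 and 186 genes, and of at least 8-fold for 16 and 13. In bulk tissue, fewer cells of a type and less RNA per cell cannot be told apart. Both replicates of a sex lay on the same side of both of the other in all 863 genes called, and in 50.98% of all genes tested. The number higher in males depended on scaling and on single pools. It was 455, against 495 higher in females, with libraries scaled by size alone, a change that moved the median of all genes from -0.01 to 0.07 on the log2 scale. Without female replicate 2 it was 521, against 775 higher in females.

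**Figure D1:**
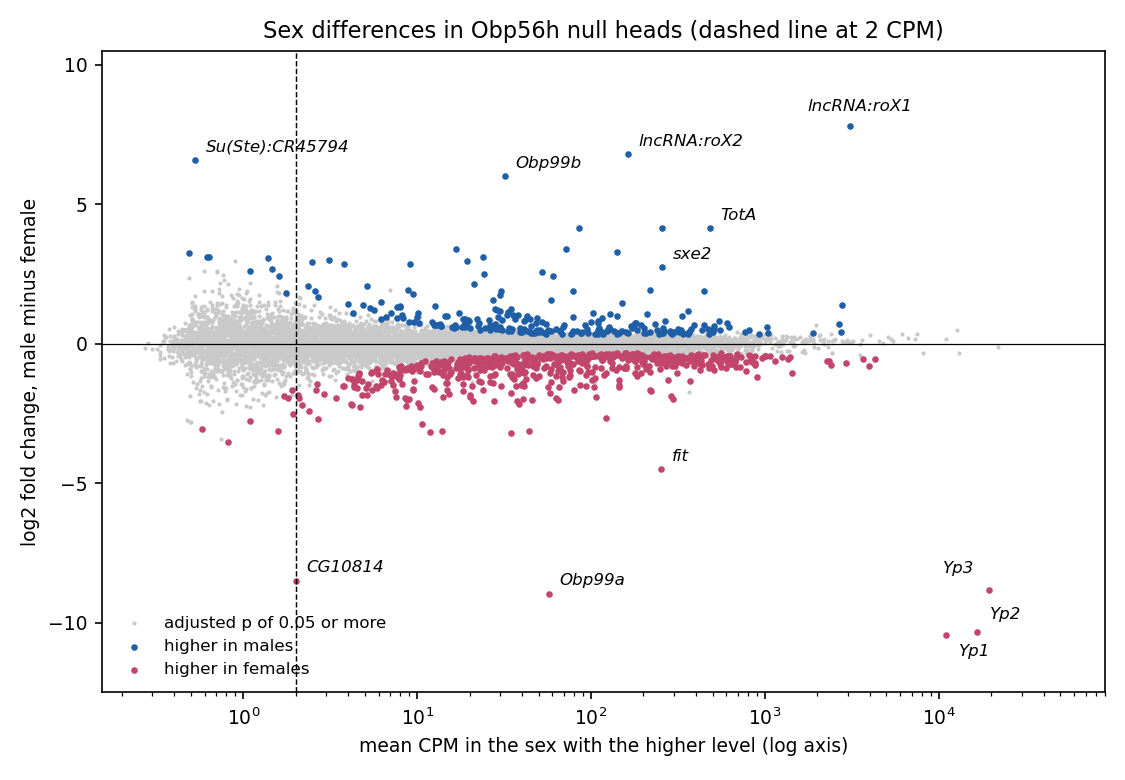
Each point is 1 of the 11533 genes tested, with its mean CPM in the *Obp56h*-/- sex where it is higher (x, log axis) and the male minus female log2 fold change (y); the 251 genes higher in males are blue, the 612 higher in females red, and the dashed line marks 2 CPM. The yolk protein genes lie far below 0 and *roX1* and *roX2* far above it, most coloured points lie close to 0, and the fitted values of *CG10814* and *Su(Ste):CR45794*, each without a read in 1 sex, depend on the prior count of the fit.

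The genes that separated the sexes most sharply in males were the RNAs of the dosage compensation complex. *roX1* (X, 3857230 to 3862697, minus strand, noncoding) was at 13.5 and 13.9 CPM in females and at 3136 and 2997 CPM in males. The difference was 7.81 ± 0.13 (log2, SE, adjusted p = 5.371e-11). *roX2* (X, 11579065 to 11580432, plus strand, noncoding) was at 1.79 and 1.03 CPM in females and 177 and 149 CPM in males, a difference of 6.80 ± 0.19 (adjusted p = 4.268e-09). The level of *roX1* in females was thus 0.44% and 0.453% of the male mean.

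The protein partners of these RNAs differed little. *msl-2*, whose translation *Sxl* blocks in females, was at 32.9 and 37.4 CPM in females and at 50.7 and 45.7 CPM in males, a difference of 0.46 ± 0.11 (log2, adjusted p = 0.02979). The other members of the complex and its recruiting factors did not pass: *msl-1* was at a log2 difference of 0.12, *msl-3* at 0.21, the helicase *mle* at 0.10, the acetyltransferase *mof* at -0.07, the DNA-binding factor *Clamp* at 0.20 and the kinase *JIL-1* at -0.03. Of the 9 genes listed for dosage compensation, 3 passed, all higher in males, and the list's median was 0.20 against -0.01 over all genes tested. *msl-2* did not pass with all 8 libraries in 1 model, without female replicate 1 or without male replicate 1, which left 2 of the list. In *CSB*, 2 of them passed, both higher in males.

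The sex determination genes, which act mainly through splicing, were near equal in total reads. *Sxl* was at 799 and 964 CPM in females and 635 and 672 CPM in males, so the groups did not overlap, and the difference was -0.43 ± 0.11 (log2, adjusted p = 0.03598). The values of *tra* (-0.52, adjusted p = 0.06961), *fru* (-0.36, adjusted p = 0.0681) and *dsx* (0.33, adjusted p = 0.05621) lay just short of the threshold. Of 14 genes of this list, *Sxl* passed as higher in females and *msl-2* as higher in males, with a median of -0.02. *Sxl* did not pass with all 8 libraries in 1 model or without either male replicate. With 1 library left out, the numbers higher in males and in females were 0 and 2 without female replicate 1, 3 and 1 without female replicate 2, 0 and 0 without male replicate 1, and 1 and 0 without male replicate 2. The other members had log2 differences of 0.10 for *tra2*, -0.10 for *ix*, which acts with *dsx*, 0.20 for *her*, 0.06 for *fl(2)d*, -0.14 for *vir* and -0.18 for *snf*, which act with *Sxl* in splicing, 0.27 for *Unr*, which acts with *Sxl* on *msl-2*, 0.57 for *dsf* and -0.11 for *retn*, and none of these passed. These counts are of whole genes and do not distinguish the male from the female splice forms.

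At the other end were the genes for yolk proteins, secreted by the fat body and taken up by the ovary. *Yp1* (X, 10053811 to 10055498, plus strand) was at 11580 and 10480 CPM in females and 11.4 and 4.45 CPM in males, *Yp2* (X, 10050951 to 10052636, minus strand) at 17890 and 15250 against 17.7 and 8.13 CPM, and *Yp3* (X, 13759546 to 13761547, plus strand) at 20790 and 18220 against 46.6 and 39 CPM. The log2 differences were -10.45 ± 0.36, -10.33 ± 0.34 and -8.83 ± 0.17 (adjusted p = 2.411e-08, 1.855e-08 and 1.473e-10). Together the 3 genes took 4.99% and 4.2% of the counted reads in females and 0.00775% and 0.00529% in males. The level of *Yp1* in males, as a share of the female mean, was 0.103% and 0.0404%. In *CSB* it was 3.76% in male replicate 1 and 0.0445% in male replicate 2, and the fitted difference of *Yp1* in *CSB* was -5.72. That difference between the lines did not pass (adjusted p = 0.579 in the fit over all 8 libraries).

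A pair of odorant-binding protein genes of the fat body list differed in opposite directions. *Obp99a* (3R, 29671657 to 29672334, plus strand) had 1922 and 736 reads in females and 2 and 3 reads in males, a log2 difference of -8.96 ± 0.46 (adjusted p = 6.973e-07). *Obp99b* (3R, 29716254 to 29716896, minus strand) was at 0.622 and 0.324 CPM in females and 31.7 and 32.5 CPM in males, a difference of 6.003 ± 0.22 (adjusted p = 3.8e-08). The male pools of *Obp99a* thus held no more than 3 reads each. In *CSB*, the differences were -6.52 and 5.75.

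Further fat body genes also differed between the sexes. *fit*, a secreted signal of the fed state known as female-specific independent of *tra*, was at 329 and 177 CPM in females and 11.4 and 10.9 CPM in males (-4.50 ± 0.25, adjusted p = 1.595e-06). *sxe2*, a lipase gene, was at 38.1 and 38.8 CPM in females and 265 and 247 CPM in males (2.74 ± 0.10, adjusted p = 2.411e-08). *Cyp4d21*, a cytochrome P450 gene also known as *sxe1*, was at 15.2 and 13.7 CPM in females and 132 and 152 CPM in males (3.29 ± 0.12, adjusted p = 2.411e-08). No female value of either gene reached the male values. *to* (takeout), a gene that responds to feeding and the clock, was at 39.1 and 35.5 CPM in females and 9.62 and 8.3 CPM in males, a difference of -2.06 ± 0.13 (adjusted p = 4.487e-06).

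Of the 16 fat body genes tested, 5 were higher in males and 3 in females, with a median of 0.08. Without female replicate 2 they were 5 and 7 with a median of -0.13, and without female replicate 1 they were 7 and 4. *Tsf1*, the iron carrier transferrin, was at 672 and 675 CPM in females and 1012 and 1049 CPM in males (0.61, adjusted p = 0.001904), and the storage protein gene *Lsp1alpha* passed at 1.38, though not with all 8 libraries in 1 model. *Apoltp*, which encodes a lipid transfer particle of the blood, passed at -0.68. *Lsp1beta*, another storage protein gene, did not pass: female pools had 20890 and 2943 reads and male pools 10656 and 12377, so the female pools lay on both sides of the male pools.

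**Figure D2:**
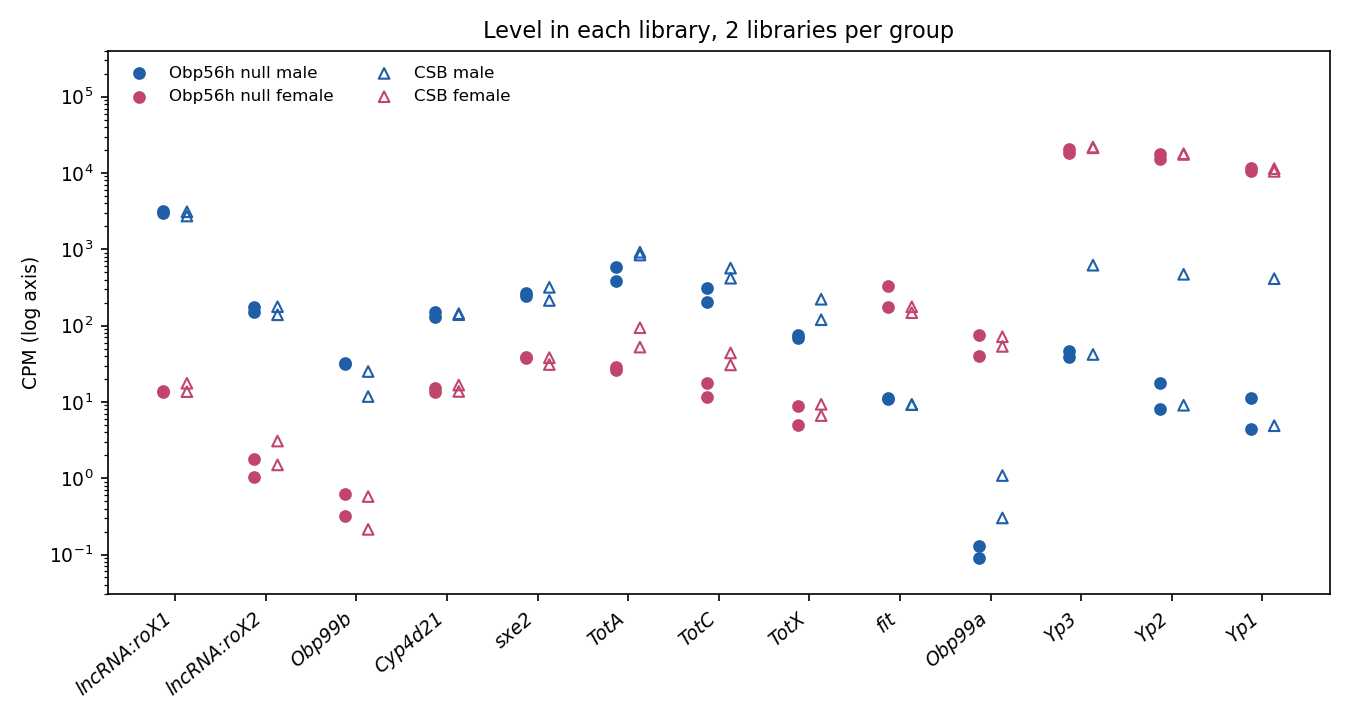
Level of 13 sex-separating genes in each library, in CPM on a log axis, with filled circles for *Obp56h*-/- and open triangles for *CSB* pools, males in blue and females in red, and each line on its own scaling. The male and female pools are separate for every gene shown, and for the yolk protein genes 1 *CSB* male pool, replicate 1, lies well above the other male pools.

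Most of the Turandot genes tested, which encode secreted peptides made by the fat body under heat, infection and other stress, were higher in males. *TotA* (3R, 20871036 to 20871700, plus strand) was at 26.1 and 29.1 CPM in females and 589 and 380 CPM in males (log2 difference 4.14 ± 0.19, adjusted p = 2.507e-07). *TotC*, its neighbour on 3R, was at 11.6 and 17.6 against 308 and 205 CPM (4.15 ± 0.22), *TotX* at 5.02 and 8.96 against 75.7 and 68.3 CPM (3.40 ± 0.20), and *TotM*, on 2L, at 5.52 and 12.7 against 42 and 63.1 CPM (2.57 ± 0.30, adjusted p = 0.0003386). Of 6 members tested, these 4 passed, the other 2 lay below 0 and did not pass, and the median was 2.98. In *CSB*, 4 passed as well, with *TotX* at 4.45 and *TotM* at 1.48. A further member, *TotB*, had no read in females and 15 and 3 reads in males, too few to be tested.

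Antimicrobial peptide genes, induced by infection through the Toll and Imd pathways, differed in both directions. Of 32 tested, 9 were higher in males and 6 in females, with a median of 0, and without male replicate 2 it was 6 and 12, with a median of -0.24. The 9 include Bomanins, short secreted peptides induced through the Toll pathway. *BomS6* was at 331 and 288 CPM in females and 469 and 613 CPM in males (0.80 ± 0.13, adjusted p = 0.003042), *BomBc3* passed at 1.02, and *Drsl4*, a relative of the antifungal gene *Drosomycin*, at 1.13. The Bomanins *BomS1* (0.68), *BomS2* (0.67), *BomBc1* (0.75) and *BomBc2* (0.68), *BaraA1* (0.71), whose product is cut into several peptides, and *Dso1* (0.54) also passed. Among the 6 higher in females were *DptA*, *AttC*, *Dro* and *CecA2*, induced mainly through the Imd pathway in response to Gram-negative bacteria. *DptA* was at 55.9 and 102.7 CPM in females and 9.8 and 39.6 CPM in males (-1.68 ± 0.45, adjusted p = 0.0494), so the male pools lay far apart. *AttC*, at 115.1 and 174 against 22 and 77.2 CPM (-1.54 ± 0.40, adjusted p = 0.04238), showed the same spread. With DESeq2, *DptA*, *AttC* and *Dro* did not pass, *DptA* did not pass without female replicate 2, and *CecA2* did not pass without female replicate 1 or male replicate 1. *Listericin* passed at -0.51. The smallest p of the 6 was that of *Mtkl*, at 33.4 and 48 against 6.79 and 13.6 CPM (-1.99 ± 0.26, adjusted p = 0.0008141).

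A pair of genes of sarcosine metabolism, chosen after their values were seen, were higher in males. *Gnmt*, whose enzyme methylates glycine to sarcosine and so uses up S-adenosylmethionine, was at 22.1 and 19.9 CPM in females and 68.3 and 88.5 CPM in males (1.90 ± 0.14, adjusted p = 9.619e-06). *Sardh*, whose enzyme turns sarcosine back to glycine, was at 3.73 and 1.57 CPM in females and 22.7 and 25.2 CPM in males (3.12 ± 0.27, adjusted p = 4.256e-05). Of 8 genes for the de novo synthesis of purines, a list made after the values were seen, 5 passed and all 5 were higher in males, with a median of 0.70, while the other 3 did not pass and 2 of them lay below 0. The last enzyme of the pathway is encoded by *CG11089*, which was at 50.2 and 46.8 CPM in females and 97.6 and 108 CPM in males (1.08 ± 0.10, adjusted p = 6.545e-05). *Pfas* passed at 0.96, *pug*, which supplies one-carbon units, at 0.75, *Gart* at 0.73 and *Prps* at 0.66. In *CSB*, none of the 8 passed and the median was -0.02.

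Cytochrome P450 genes, which encode oxidases of toxins, hormones and lipids, differed in both directions. Of 73 tested, 10 were higher in males and 4 in females, or 7 without female replicate 1. *Cyp313a1* was at 119 and 120 CPM in females and 416 and 474 CPM in males (1.90 ± 0.10, adjusted p = 8.475e-07). *Cyp6g1*, known for resistance to insecticides, was at 62.1 and 59.9 against 117 and 114.8 CPM (0.93, adjusted p = 9.763e-05), and *Cyp28d1* and *Cyp309a1* passed at 1.08 and 2.96. *Cyp18a1*, whose enzyme inactivates the steroid hormone ecdysone, was higher in females, at 60.6 and 56.8 against 22.1 and 23.4 CPM (-1.37 ± 0.10, adjusted p = 1.608e-05). The amylase genes *Amy-d* and *Amy-p* were higher in males by 2.14 and 2.84 (log2). They are near-identical copies, so how the reads were divided between them is uncertain.

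Many genes of the machinery of protein synthesis were higher in females, and the lists for it were made after the values were seen. Of 79 genes for cytoplasmic ribosomal proteins tested, 61 were higher in females and none in males, 78 of 79 lay below 0, and the median log2 difference was -0.58. *RpL39* was at 589 and 604 CPM in females and 328 and 321 CPM in males (-0.88 ± 0.09, adjusted p = 0.0001408), *RpL13A* was at -0.85 and *RpS6* at -0.71. Summed over the list, females had 41220 and 36770 CPM and males 25620 and 26490 CPM. Of 70 genes for mitochondrial ribosomal proteins, none passed in either direction, and their median was 0.01. Without male replicate 1 or 2, 1 of them passed as higher in females. The count of 61 was 56 with libraries scaled by size alone, 32 without male replicate 1, 49 to 73 without each of the other libraries, and 1 when a difference above 1.5-fold was required. In *CSB*, the median was -0.51 over 80 such genes, of which 5 passed with edgeR and 34 with DESeq2, all higher in females.

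Small nucleolar RNAs, which guide the chemical modification of ribosomal RNA, were also higher in females. Of 86 that guide pseudouridylation, 44 were higher in females and none in males, with a median of -1.11. *snoRNA:Psi18S-531* (X, 763083 to 763234, minus strand) was at 67.9 and 57.2 CPM in females and 15.5 and 16.8 CPM in males (-1.95 ± 0.12, adjusted p = 3.512e-06). The list's sum was 2711 and 2302 CPM in females and 1036 and 1043 CPM in males. In *CSB*, 16 of 84 passed, all higher in females, and the median was -1.04. Of 17 that guide methylation, 2 passed, or 4 without male replicate 2, and of 30 others 11 passed, all higher in females. Many of these RNAs have near-identical copies and lie in introns of other genes, so single counts of them are uncertain, and total RNA libraries recover such short RNAs only in part. Of 39 tRNA genes tested, none passed, against 1 higher in males without female replicate 1, female replicate 2 or male replicate 1 and 2 higher in females without male replicate 2.

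The proteins that bind these guides followed the same direction. Genes for 6 of the 7 core proteins of small nucleolar ribonucleoproteins were higher in females, and their median was -0.83. It was 3 of 7 with all 8 libraries in 1 model and also without female replicate 1, where the median was -0.70. *Nop60B*, the pseudouridine synthase, was at 34.4 and 41.7 CPM in females and 17 and 19.2 CPM in males (-1.07 ± 0.13, adjusted p = 0.0005002), *Nop56* at 21.1 and 22.3 against 9.62 and 10.4 CPM (-1.12 ± 0.14, adjusted p = 0.0005002), and the methyltransferase gene *Fib* passed at -0.78, though not without female replicate 1. In *CSB*, 5 of the 7 passed, with a median of -1.18. *Myc*, an activator of ribosome production, was at 177 and 238 against 124 and 115.4 CPM (-0.79, adjusted p = 0.003285). *Thor*, which encodes a brake on translation initiation, was higher in females too, at 295 and 333 against 151 and 150 CPM (-1.06, adjusted p = 5.989e-05).

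Translation factors and the entry of proteins into the endoplasmic reticulum showed shifts of the same sign, smaller for the translation factors. Of 43 initiation and elongation factors, 12 were higher in females and none in males, with a median of -0.25. The 12 were 6 without male replicate 1, 8 without male replicate 2 and 17, with 2 higher in males, without female replicate 2. In *CSB*, none of 49 passed with edgeR and 2 with DESeq2. For signal recognition and the translocon, 11 of 19 genes were higher in females and the median was -0.56. *Sec61alpha*, the channel itself, was at 163 and 147 CPM in females and 86.7 and 83.4 CPM in males (-0.87 ± 0.09, adjusted p = 0.0002321). *TRAM* passed at -0.93 and *SsRbeta* at -0.99.

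The markers of blood cells and the genes of the basement membrane, which blood cells and fat body secrete, were higher in females. Of 9 blood cell markers, 8 passed, all higher in females, with a median of -0.68, and the range of their summed level was 1895 to 2030 CPM in females and 1202 to 1250 CPM in males. *Hml*, the plasmatocyte marker hemolectin, was at 483 and 473 against 251 and 271 CPM (-0.87 ± 0.09, adjusted p = 0.0001789). *PPO2*, the prophenoloxidase stored in crystal cells, was at 100.4 and 107 against 36.9 and 33.3 CPM (-1.56 ± 0.10, adjusted p = 4.487e-06). The phagocytic receptor gene *NimC1* passed at -1.27, *eater*, another such receptor gene, at -0.67, and *PPO1*, another prophenoloxidase of crystal cells, at -1.14. None of the markers was at 0 in any *Obp56h*-/- library.

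Among 11 basement membrane genes, 10 passed as higher in females, and the median was -0.69. The genes *Col4a1*, *vkg* and *Pxn* are also among the blood cell markers. *Ndg*, nidogen, was at 45.8 and 31.3 CPM in females and 9.31 and 8.17 CPM in males (-2.15 ± 0.18, adjusted p = 3.752e-05), *Ppn*, papilin, at 951 and 838 against 407 and 383 CPM (-1.18 ± 0.10), and *LanA*, a laminin chain, at 197 and 199 against 114.7 and 122 CPM (-0.75 ± 0.09). *Col4a1*, a chain of collagen IV, was at 705 and 628 against 404 and 426 CPM (-0.68 ± 0.10). In *CSB*, 1 of the 11 passed, *Ndg* at -2.66, or 4 with DESeq2, and the list's median was -0.43. *vkg* and *Pxn* did not pass without either male replicate. The part that the number of blood cells has in these differences was not tested.

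Among 10 muscle markers, 4 passed as higher in females, the median was -0.32, and the summed level was 6743 and 7060 CPM in females and 4875 and 4921 CPM in males. *Mhc*, muscle myosin, was at 2383 and 2179 against 1468 and 1512 CPM (-0.61 ± 0.10, adjusted p = 0.002978). *Act57B*, an actin gene, passed at -0.61, *Mlc2*, a myosin light chain gene, at -0.47 and *Mf*, myofilin, at -0.43. However, only 1 of the 10 passed without male replicate 1, and 1 without male replicate 2, against 7 without female replicate 1. A longer list of 17 genes of muscle structure, made after the values were seen, had 10 higher in females and a median of -0.45, with 3 left without male replicate 1 and 4 without male replicate 2. The 7 neuronal markers all lay above 0, with a median of 0.16, and none passed. Without female replicate 2, 4 of them passed as higher in males with a median of 0.25, and without female replicate 1 it was 1, with 4 of 7 above 0 and a median of 0.03. In glia, *alrm*, a marker of astrocyte-like glia, was higher in males (0.64, adjusted p = 0.003507), and among photoreceptor markers *Rh3*, an ultraviolet opsin, was higher in females (-0.33, adjusted p = 0.04634), though not with RLE scaling factors in place of TMM, with library size alone, with all 8 libraries in 1 model or without either male replicate. Of 6 antennal markers, *Obp28a* and *Antdh*, the antennal dehydrogenase gene, were higher in females at -0.87 and -0.83, and the summed level was 90.3 and 73.4 CPM in females and 51.9 and 44.1 CPM in males. The antennal median was -0.77, but 1.2 without female replicate 1 and -0.1 without male replicate 2. Of 7 gut markers, the amylase genes *Amy-p* and *Amy-d* were higher in males, the summed level was 11.8 and 14.1 CPM in females and 33.6 and 32.9 CPM in males, and the median was 0.52, or 0.04 to 0.3 with 1 library left out.

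**Figure D3:**
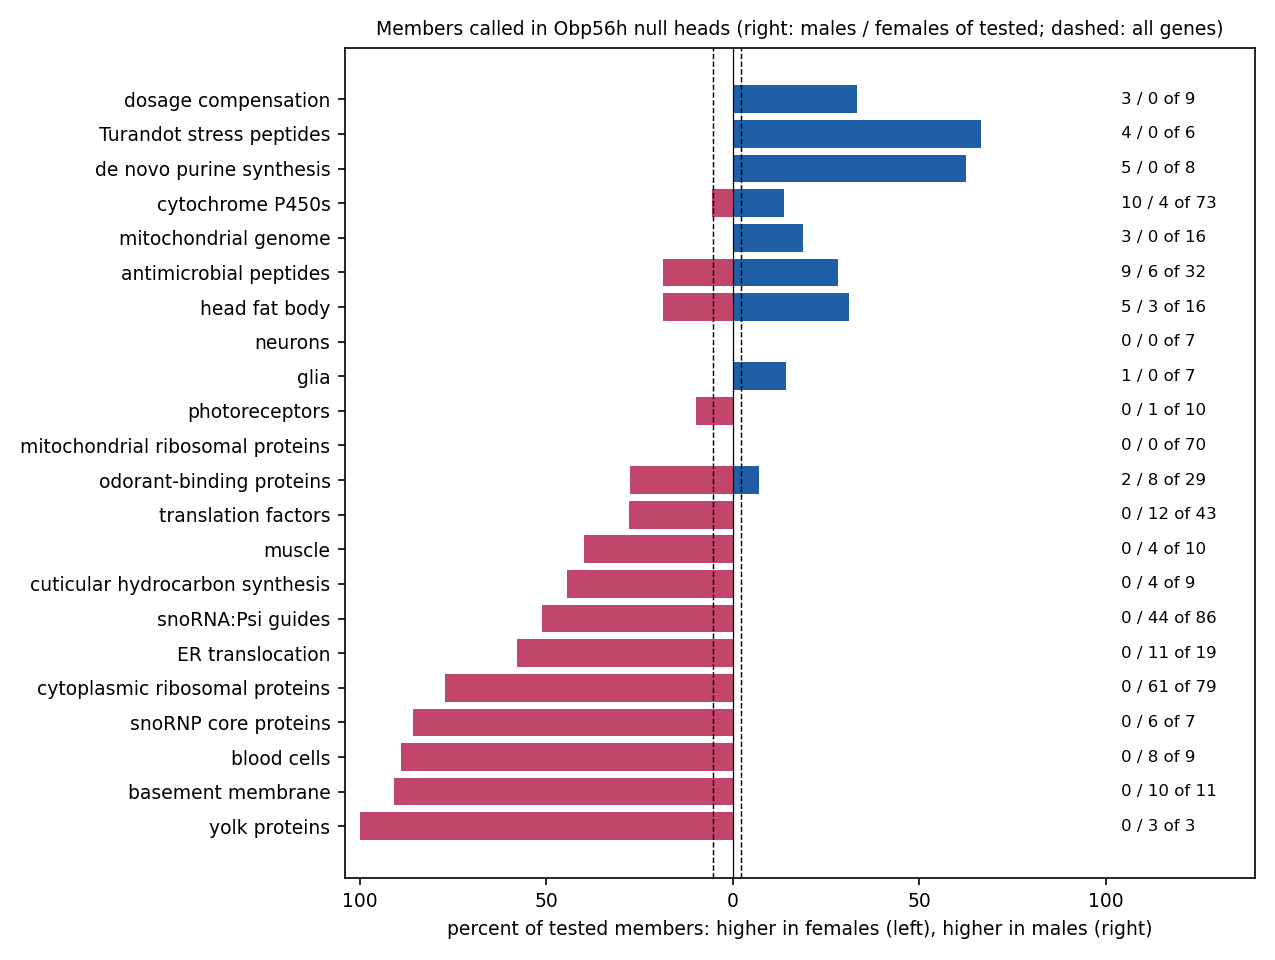
Share of the tested members of each gene group, in percent, that were higher in females (red, left) or in males (blue, right) of the *Obp56h*-/- line, with the counts at the right and dashed lines at 5.31% and 2.18%, the shares over all genes tested. Bars to the left are longest for yolk protein, basement membrane and blood cell genes, bars to the right for Turandot and purine synthesis genes, and mitochondrial ribosomal proteins have none.

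Odorant-binding proteins, the family of the deleted gene, carry small hydrophobic molecules, and many are made outside the antenna. Of 29 tested, 8 were higher in females and 2 in males, with a median of -0.23, and without female replicate 1 it was 6 and 4, with a median of 0.07. *Obp56d*, a cluster neighbour of *Obp56h* on 2R, was at 243 and 191 CPM in females and 71 and 65.7 CPM in males (-1.67 ± 0.12, adjusted p = 1.042e-05), and *Obp56e* at 14.4 and 13.5 against 0.809 and 2.34 CPM (-3.13 ± 0.33, adjusted p = 0.0001737). *Obp83cd* and *Obp83ef*, at -1.92 and -1.58, overlap on opposite strands, so their reads may not be separable. In *CSB*, the values of *Obp56d* and *Obp56e* were -1.85 and -2.94, and those of *Obp28a*, *Obp19d* and *Obp56a*, which passed in *Obp56h*-/- heads at -0.87, -0.47 and -0.71, were -0.19, 0.37 and 0.09 and did not pass.

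In the synthesis of cuticular hydrocarbons, the waxes and contact pheromones of the fly, 4 of 9 genes were higher in females and none in males. *FASN1*, a fatty acid synthase, was at 3090 and 2737 CPM in females and 1868 and 1773 CPM in males (-0.68, adjusted p = 0.002206), and *FASN2*, its relative known from the oenocytes, was at 4.16 and 4.86 against 1.48 and 1.47 CPM (-1.60, adjusted p = 0.006762). *Cyp4g1*, whose enzyme carries out the last step, passed at -0.77, though not without female replicate 2, and the elongation enzyme gene *spidey* at -0.39, though not without male replicate 1. In *CSB* none of the 9 passed. Of 12 genes of courtship chemosensing tested, none passed, and 1 did as higher in males without female replicate 1. Of 7 insulin-like peptide genes, *Ilp3* and *Ilp5*, both made in the brain, were higher in females at -0.88 and -0.72, and *Ilp2*, from the same cells, did not pass at 0.20 (adjusted p = 0.386). With all 8 libraries in 1 model, neither *Ilp3* nor *Ilp5* passed.

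Several of the genes with the smallest p belong to none of these groups. *Root*, which encodes rootletin of the ciliary rootlet, was at 118 and 126 CPM in females and 20.3 and 17.8 CPM in males (-2.68 ± 0.11, adjusted p = 7.893e-08). *rost*, known from myoblast fusion, was at 44.8 and 42.9 against 4.59 and 5.45 CPM (-3.13 ± 0.14, adjusted p = 1.775e-07). *CG5773*, *CG43402* and *CG14419* were higher in females by log2 values of -1.97, -3.20 and -1.86. All 5 passed in *CSB* as well, at -1.62, -2.90, -1.69, -2.98 and -1.94 in that order.

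Most of the genes tested that the reproductive organs use did not pass. None of the 21 testis genes tested passed, and the median was -0.12, but 0.11 without female replicate 1 and 0.1 without female replicate 2, where 1 passed as higher in males. Of 18 genes of the accessory gland and ejaculatory tract, *Sfp33A2* and *Obp8a* were higher in males and *Obp56e* in females. Neither of the pair passed without female replicate 1 or without male replicate 2, and *Obp8a* did not pass without female replicate 2. Of 20 ovary and eggshell genes, *yellow-g2* passed as higher in females, though not without female replicate 1, female replicate 2 or male replicate 1, and of 4 genes of the female tract none did.

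The sex-biased genes of low level were examined next, since these libraries had the least spread there. Of 2021 genes tested with a mean under 2 CPM in the higher sex, 9 were called as higher in males (0.445%) and 9 as higher in females (0.445%), together 0.891%. Of the 9512 genes at 2 CPM or more, 845 were called, 8.88%. Before adjustment, 172 of these weak genes had a p under 0.05. The lowest mean of a called gene was 0.484 CPM, and the smallest difference called among the 18 was 1.66 (log2), so small differences were not detectable at this level. Just inside the limit lay *CG10814* at 2 CPM and *CG4020* at 1.92 CPM in females, and just outside it *snoRNA:Or-aca3* at 2.07 CPM and *Pgant4* at 2.09 CPM. Ratios below are of reads summed over the 2 pools of a sex and divided by library size, with exact 95% intervals that cover counting error only.

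Only 2 genes tested had no read in 1 sex and at least 10 reads in both pools of the other. *CG10814* (2R, 13375975 to 13377731, minus strand) had 61 and 30 reads in females and 0 and 0 in males (adjusted p = 0.0008466). Taking 3 reads over the 2 male pools as the floor, it was 31.1-fold higher in females, and the exact interval began at 24.8-fold. It was the only one of the 18 to pass in *CSB* as well, with 47 and 141 reads in females and 14 and 4 in males (-3.41, adjusted p = 0.005216). *Su(Ste):CR45794* (Y, 1005991 to 1007312, plus strand, noncoding) had 0 and 0 reads in females and 12 and 12 in males (adjusted p = 0.01688). Against the same floor it was 7.8-fold higher in males, and the interval began at 5.87-fold. The gene did not pass with all 8 libraries in 1 model, and its call depended on single female pools. It belongs to the *Suppressor of Stellate* repeats, source of the small RNAs that silence *Stellate* in the germ line, whose copies are near-identical. Some other copies had no female reads, but *Su(Ste):CR42430* had 11 and 0 in females and 34 and 15 in males. Likewise, *Su(Ste):CR42419* had 8 and 0 against 13 and 10, so the count of a single copy is uncertain. In *CSB*, *Su(Ste):CR45794* had 0 and 1 reads in females and 20 and 8 in males.

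Among the other weak genes higher in males, *Erasp* had 4 and 3 reads in females and 24 and 39 in males, a ratio of 8.78 (4.02 to 22.7, adjusted p = 0.01105). In *CSB* its counts were 5 and 15 in females and 43 and 33 in males. *vilya*, known from meiotic recombination, had 1 and 1 reads in females and 10 and 12 in males, a ratio of 10.7 (2.64 to 94.1). *brv3*, which encodes a channel of the polycystin family, had 7 and 1 reads in females and 20 and 30 in males, and its exons overlap *Seipin* on the other strand. The antisense RNA *asRNA:CR45501*, opposite *parvin*, had 2 and 1 reads in females and 14 and 14 in males, a ratio of 9.1 (2.81 to 46.8). Another, *asRNA:CR43481*, opposite *Hsp67Ba*, had 1 and 2 reads in females and 14 and 15 in males, a ratio of 9.43 (2.92 to 48.4). Whether the counting used strand is not given in the sources used here, so reads of these 3 genes may come from the opposite strand. *Sfp33A2*, a seminal fluid protein gene, had 6 and 7 reads in females and 33 and 40 in males, but 17 and 17 against 18 and 31 in *CSB*. *CG12698*, with 6 and 4 against 41 and 25 reads, and *CG2961*, with 12 and 10 against 48 and 32, complete the 9.

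Among those higher in females, *Ccp84Aa*, a cuticle protein gene, had 24 and 13 reads in females and 3 and 0 in males, a ratio of 12.7 (4.01 to 64.1). *CG14492* had 16 and 10 reads in females and 1 and 2 in males, a ratio of 8.89 (2.72 to 45.9). *yellow-g2*, needed for the eggshell, had 20 and 26 reads in females and 1 and 6 in males (-2.76 ± 0.75, adjusted p = 0.04956). *CG31373* had 43 and 28 against 8 and 0 reads, *CG4020* 39 and 43 against 9 and 6, *lncRNA:CR45447* 38 and 40 against 11 and 10, *snoRNA:Or-aca1* 39 and 35 against 10 and 11, and *CG14566* 46 and 37 against 13 and 14. In none of these did a male pool reach the lower female pool, but all 863 genes called and 50.98% of all genes tested were likewise without overlap.

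**Figure D4:**
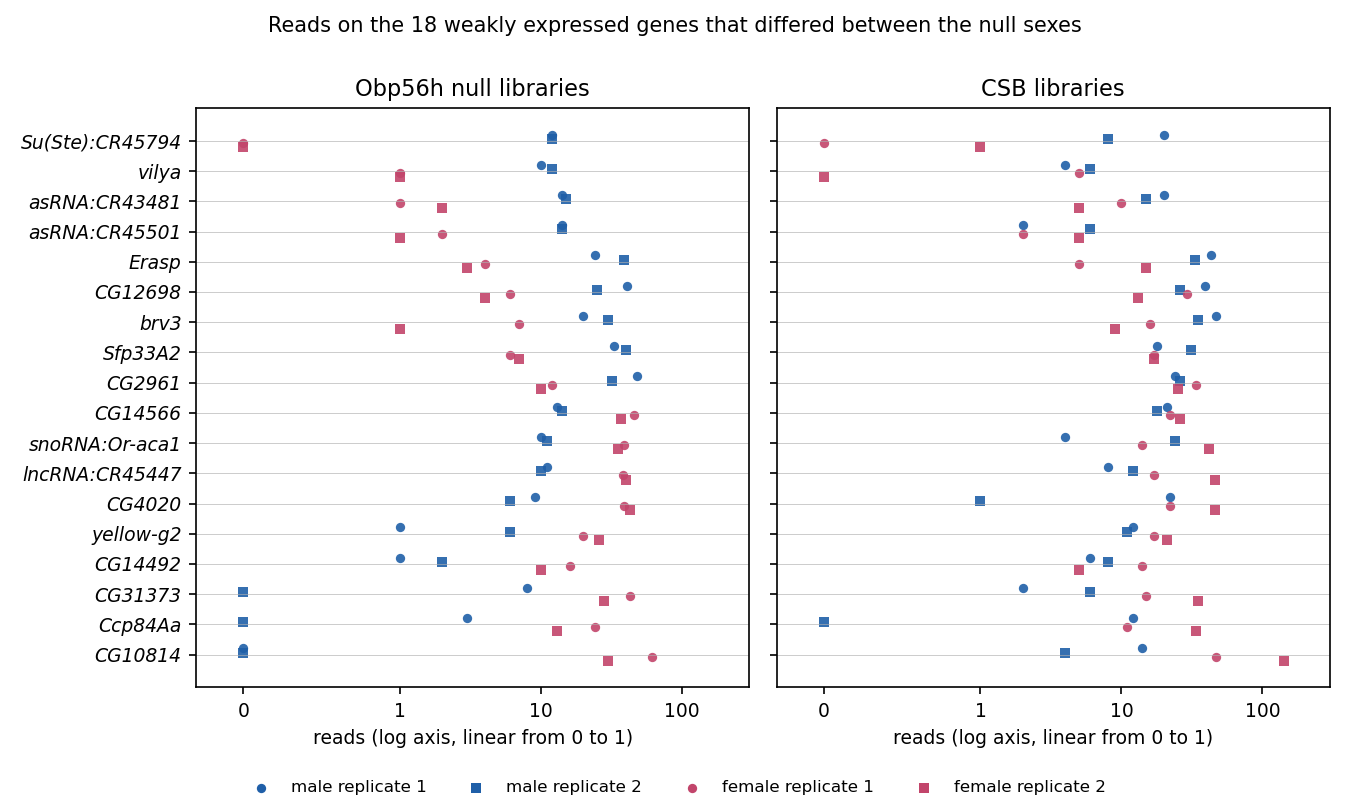
Reads counted on the 18 weakly expressed sex-biased genes in each *Obp56h*-/- pool (left) and *CSB* pool (right), on an axis that is linear from 0 to 1 and log above, males in blue and females in red, with circles for replicate 1 and squares for replicate 2. On the left both pools of 1 sex lie above both pools of the other for each gene, which the choice of genes fixes, and on the right the sexes overlap for many of them.

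In *CSB*, 6 of the 9 weak genes higher in males had enough reads to be tested and 8 of the 9 higher in females. Of these, 5 and 8 had the same sign, and 0 and 1 passed. By CPM, both replicates lay on the same side as in *Obp56h*-/- heads for 3 and 7 of the genes. The share of all genes that lay so in *CSB* was not counted, so no excess can be read from these numbers. None of the 18 passed in the test of the difference between the lines. Most single calls among them depended on 1 library. Of the 9 and 9 genes, 1 and 2 still passed without female replicate 1, 2 and 2 without female replicate 2, 3 and 4 without male replicate 1, and 2 and 3 without male replicate 2. The numbers of weak calls in those fits, other genes included, were 6 and 4, 2 and 4, 6 and 13, and 10 and 15. Of the 18, *CG10814* alone passed in every alternative in which it could be tested.

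By chromosome, genes of the X were slightly lower in males. Over 1870 X-linked genes the median was -0.07, against 0.01 over 9388 genes of the large autosomes, a gap of -0.073 that ranged from -0.093 to -0.048 over the 4 pairings of a male with a female pool. On the X, 129 genes (6.9%) were higher in females and 38 (2.03%) in males, against 4.97% and 2.1% on the large autosomes. Chromosome 4, a small autosome whose genes are marked by the protein *Pof*, went the other way: the median over 102 genes was 0.16, and 9 were higher in males (8.82%) and 1 in females (0.98%). The 9 include the kinase gene *CaMKII* (0.59 ± 0.11, adjusted p = 0.006191), the glutamate receptor gene *mGluR* (0.44) and the synaptic vesicle genes *Cadps* (0.41) and *Syt7* (0.40), and the 1 is *bt*, which encodes the muscle protein projectin (-0.61 ± 0.10, adjusted p = 0.002901). The calls of all 9 depended on male replicate 2, and that of *bt* on male replicate 1. With all 8 libraries in 1 model, none of the 9 passed. The gap of chromosome 4 to the large autosomes was 0.151 and ranged from 0.058 to 0.264 over the pairings.

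Of 16 genes tested from the mitochondrial genome, 15 lay above 0, with a median of 0.36, and 3 passed. *mt:ND4* was at 282 and 280 CPM in females and 425 and 469 CPM in males (0.67 ± 0.09, adjusted p = 0.001207), and *mt:Cyt-b* and *mt:CoII* passed at 0.69 and 0.36. *mt:CoII* did not pass without either male replicate, nor *mt:Cyt-b* without male replicate 1. Without female replicate 1, 8 passed as higher in males, without female replicate 2 it was 11, and without male replicate 2 it was 5. Genes of the Y chromosome had few reads in heads: 294 and 259 in males and 169 and 74 in females over 113 genes. The female reads are a background to these counts, and the pseudogene *CR40801* had 37 and 16 of them, against 21 and 10 reads in males. In *CSB*, 991 reads were counted on them in male replicate 1 and 431 in male replicate 2. Of 12 Y-linked fertility genes, only 1 had enough reads to be tested, and it did not pass. Among the 12, *kl-5* had 1 and 1 reads in females and 5 and 9 in males. *kl-3* had 5 and 3 against 6 and 8, so both did not overlap between the sexes, but on too few reads to show a sex difference. *kl-2*, with 9 and 2 against 5 and 8 reads, and *ORY*, with 1 and 4 against 5 and 2, overlapped.

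In *CSB*, tested by the same steps on its own 4 libraries, 79 genes were higher in males (0.607% of 13022) and 124 in females (0.952%), with 1003 at an unadjusted p under 0.05. These counts were 27 and 95 without *CSB* female replicate 2 and 215 and 306 without *CSB* male replicate 2, and 272 were higher in females without *CSB* male replicate 1. A total of 149 genes passed in the same direction in both lines, 47 higher in males and 102 in females. They are 17.3% of the 863 calls in *Obp56h*-/- heads and 73.4% of the 203 in *CSB*. Of 858 *Obp56h*-/- calls tested in *CSB*, 809 had the same sign, 94.3%, against 66.5% of all 11394 genes tested in both. The *CSB* values of these calls, taken in the *Obp56h*-/- direction, had a median of 0.51, against 0.69 in *Obp56h*-/- heads. The 2 genes called in opposite directions were *AttC*, at -1.54 and 1.04, and *CG4757*, at -0.66 and 0.82. In *Obp56h*-/- heads, *AttC* did not pass with DESeq2, nor *CG4757* without female replicate 2 or male replicate 2.

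**Figure D5:**
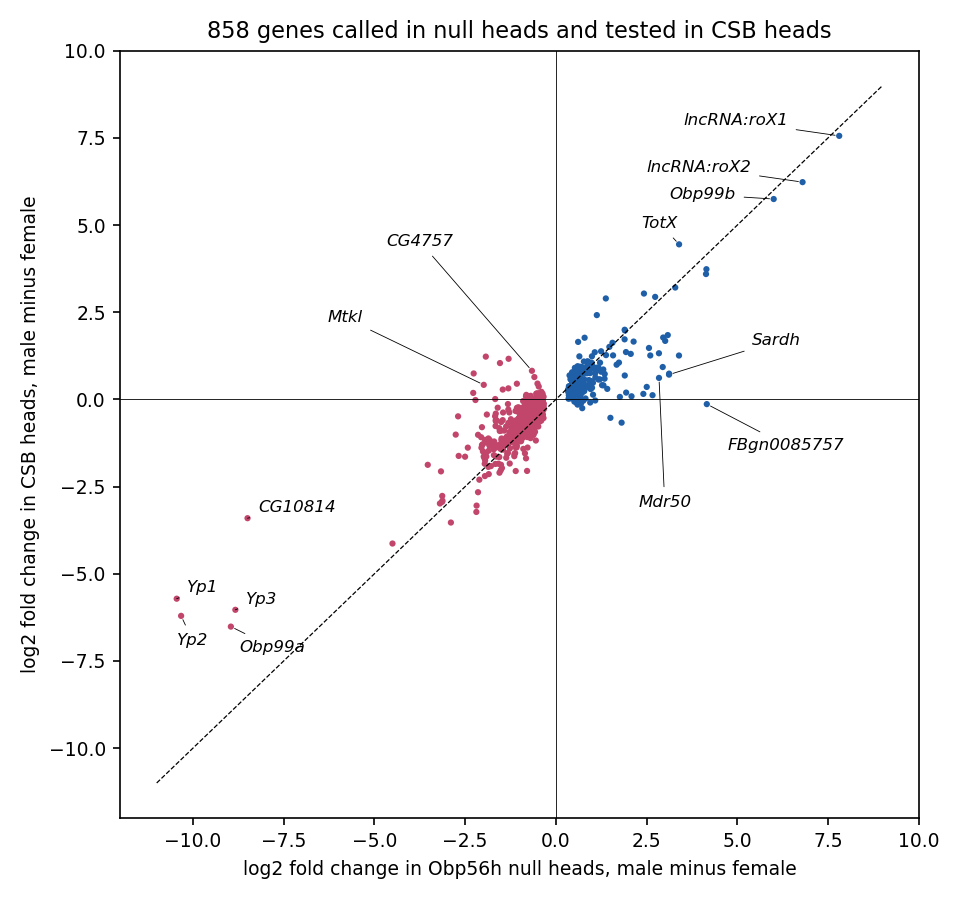
Male minus female log2 fold change in *Obp56h*-/- heads (x) and in *CSB* heads (y) for the 858 genes called in *Obp56h*-/- heads and tested in *CSB*, blue where higher in males and red where higher in females of the *Obp56h*-/- line, with a dashed line of equal values. Of these, 809 have the same sign on both axes, and *FBgn0085757*, *Mdr50* and *Sardh* lie well below the line of equal values.

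Whether the sex difference itself differed between the lines was tested over all 8 libraries. Of 13536 genes, 5 passed (0.0369%), and 413 had an unadjusted p under 0.05. With DESeq2 there were 19. The count rests on single libraries, since it was 1 without *CSB* female replicate 1, 61 and 214 without *CSB* male replicates 1 and 2, and 14, 34 and 11 without female replicate 2, male replicate 1 and male replicate 2 of the *Obp56h*-/- line. Of the 863 genes called in *Obp56h*-/- heads, 4 passed this test and 130 had an unadjusted p under 0.05. *FBgn0085757* had 124 and 87 reads in females and 1807 and 2064 in males, and 745 and 2095 reads in *CSB* females and 1418 and 1313 in *CSB* males. It was thus low in females of the *Obp56h*-/- line (4.16 ± 0.12, adjusted p = 7.432e-09) and near equal between *CSB* females and males (-0.13). The difference between the lines was 4.29 ± 0.24 (log2, adjusted p = 1.464e-08), which held in all 16 alternatives run. The identifier is not in the annotation used, so no name or position is given for it.

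*Sardh*, described above with *Gnmt*, had 96 and 29 reads in females and 505 and 583 in males, against 69 and 267 in *CSB* females and 232 and 335 in *CSB* males. Its sex difference was 3.12 in *Obp56h*-/- and 0.71 in *CSB* heads, a difference of 2.42 ± 0.41 (adjusted p = 0.04424). *Mdr50*, which encodes an ABC transporter, had 26 and 29 reads in females and 216 and 195 in males, against 53 and 135 and 138 and 176 in *CSB*, a difference of 2.22 ± 0.36 (adjusted p = 0.03421). On the scale shared by all 8 libraries, the mean level of *Sardh* was 2.76 CPM in females and 24.8 CPM in males of the *Obp56h*-/- line and 8.69 and 14.5 CPM in *CSB*, and that of *Mdr50* was 1.33 and 9.39 CPM against 5.23 and 8.07 CPM. With library size alone, the differences in *Sardh* and *Mdr50* did not pass, and both depended on single libraries. *Gnmt* and *CG11089* leaned the same way and did not pass (both adjusted p = 0.0964). Among the genes in which the difference leaned the other way, *PGRP-SB1*, which encodes a peptidoglycan amidase, was at -0.63 in *Obp56h*-/- heads (adjusted p = 0.1198) and 0.76 in *CSB* heads, and the difference of -1.39 did not pass (adjusted p = 0.1596).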

How the data were processed

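The authors trimmed and filtered the reads, aligned them with GSNAP to release 6 of the *Drosophila melanogaster* genome, counted unique alignments per gene with Subread, and deposited these raw counts for 17490 genes without normalization. Strand setting and treatment of overlapping genes are not given in the sources used here. The BDGP6 annotation of Ensembl held 17288 of them and gave positions and classes.

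The 4 *Obp56h*-/- libraries were compared by edgeR 4.0.16 under R 4.3.3 (filterByExpr with a count minimum of 10 and a total of 15, TMM, quasi-likelihood test of males minus females, Benjamini-Hochberg adjustment over all genes tested, threshold 0.05). The 4 *CSB* libraries were tested alike, and the difference between the sex effects in 1 fit over all 8. Differences are log2 fold changes of males minus females with their SE, and negative values are higher in females. Replicates are pools, so p-values measure the spread between pools. Weak genes are calls with a mean under 2 CPM in the higher sex. Depth sets the floor of 3 reads, and floors and intervals cover counting error only. The steps were tested on simulated counts.

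Named are the 10 genes with the smallest p in each direction, the weak genes, listed genes that passed, all members of the dosage compensation, sex determination and yolk protein lists, and the 5 smallest p in each direction of the difference between lines. Others were named after their values were seen. The comparison and the gene lists were chosen with earlier results of these data known, and the lists for protein synthesis, guide RNAs, basement membrane, purine synthesis, P450s, odorant-binding proteins, muscle structure, insulin-like peptides and the mitochondrial genome after the values here were seen. Alternatives were other scalings, filters, tests (DESeq2 1.42.0, limma 3.58.1), thresholds, thinning, the replicate number as a block, each library left out and, added after the data were seen, the 6 libraries without *CSB* replicate 1. Plots were drawn with matplotlib 3.10.9.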

Additional observations from a re-analysis of the deposited data

Results flagged for a closer look

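In 5 genes the sex difference of the *Obp56h*-/- line differed from that of *CSB* by the test over all 8 libraries. It was larger by 4.29 (log2) for *FBgn0085757*, by 2.42 for *Sardh* and by 2.22 for *Mdr50*, and in each of these *Obp56h*-/- females had the lowest mean level of the 4 groups. For *CG4757* it was -1.48, with females higher in the *Obp56h*-/- line (635 and 634 reads against 463 and 378 in males) and males higher in *CSB* (405 and 911 reads in females, 1263 and 1299 in males). For *tRNA:Tyr-GTA-1-9* it was 12.5, from 2 and 0 reads in females and 2 and 252 in males of the *Obp56h*-/- line and 105 and 122 in females and 2 and 3 in males of *CSB*. Exons of *Ntl* cover that tRNA gene on its own strand, the 2 *Obp56h*-/- male pools do not agree, and without male replicate 2 it did not pass. With library size alone, the difference of *FBgn0085757* passed and those of *Sardh*, *Mdr50*, *CG4757* and *tRNA:Tyr-GTA-1-9* did not. With at least 10 reads in every library, *Sardh*, *Mdr50* and *CG4757* did not pass either. All but *FBgn0085757* depended on single libraries, which for *Sardh* were the *CSB* female pools.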

How the results depend on the processing

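Where a named gene passed in the main fit or in an alternative, its direction was the same in both. Genes that passed in neither could change sign. Of the 14 sex determination genes, 7 lay above 0 in the main fit and 9 without female replicate 1. Counts moved, and so did the sign of some list medians with 1 library left out. These were the head fat body (0.08, and -0.13 without female replicate 2), testis (-0.12, and 0.11 and 0.1 without female replicates 1 and 2), odorant-binding protein (-0.23, and 0.07 without female replicate 1), antennal (-0.77, and 1.2 without female replicate 1), mitochondrial ribosomal protein (0.01, and -0.11 and -0.07 without the second female and male replicates), cytochrome P450 (0.01, and -0.01 and -0.07 without the same) and sex determination genes (-0.02, and 0.03 and 0.05 without female replicate 1 and male replicate 2). Of 228 called genes that are weak or on a list, 121 passed without each library in turn and 0 changed sign. Higher in males and in females of the *Obp56h*-/- line (251 and 612) were 113 and 319 genes with all 8 libraries in 1 model, 434 and 924 without a filter, 108 and 309 at an adjusted p under 0.01, and 47 and 108 for a fold above 1.5. In males there were 455 with library size alone and 397 with the likelihood ratio test. With 1 library left out, the ranges were 175 to 521 and 456 to 775. Of the 863 genes, 782 passed with the replicate block, which gave 232 and 613. Deviations of same-numbered pools correlated at r = 0.014 in the *Obp56h*-/- line and 0.541 in *CSB*. With 2 pairs in a line this does not establish pairing, and no source pairs the pools. Weak genes (9 and 9) were 1 and 0 with all 8 libraries, 22 and 29 without a filter, 5 and 5 with at least 10 reads in every library, 38 and 47 with the likelihood ratio test, 1 and 3 with DESeq2, 0 and 1 at an adjusted p under 0.01, 1 and 1 for a fold above 1.5, 4 and 2 under 1 CPM, and 18 and 37 under 5 CPM. With voom 5 were higher in males. The ranges with 1 library left out were 2 to 10 and 4 to 15. In *CSB* (79 and 124) there were 138 and 194 without a filter, 35 and 36 with library size alone, 133 and 260 with all 8 libraries, 224 and 420 with the replicate block, which called 44 of 80 cytoplasmic ribosomal protein genes, and 27 to 215 and 95 to 306 with 1 library left out. Differences between the lines (5) were 2 with library size alone, 70 without a filter, 1 with at least 10 reads in every library, 19 with DESeq2, 18 with the replicate block, 13 without *CSB* replicate 1, and 1 to 214 with 1 library left out. The gaps of the X and of chromosome 4 to the large autosomes kept their signs, at -0.09 to -0.059 and 0.083 to 0.231. The causes were not tested. Depth limits the weak genes, of which none with a difference under 1.66 (log2) passed.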
